A study of Mus musculus with 22 samples.

Results

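The genes described here are 34 genes whose products make ribosomes in the nucleolus, taken by name from the 24411 genes listed in both deposited tables. All 34 are listed in both. They comprise 3 genes of RNA polymerase I transcription, 2 Myc factors, 3 genes of the box C/D and 5 of the box H/ACA small nucleolar RNA particles, 11 of the small subunit, 8 of the large subunit, and nucleolin (Ncl) and nucleophosmin (Npm1). Myc and Mycn are transcription factors of the pathway rather than nucleolar proteins, and are described apart from the rest.

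Ribosomes are built in the nucleolus, where RNA polymerase I transcribes a long precursor ribosomal RNA. Small nucleolar RNA particles modify the precursor, box C/D particles by methylation and box H/ACA particles by pseudouridylation, and large assemblies of processing factors fold and cut it into the RNAs of the small and the large subunit. Proliferating cells, among them neural stem cells, make many ribosomes, and Myc is a known transcriptional activator of this programme.

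RNA was sequenced from primary neural stem cells of the adult mouse hippocampus, grown on coated plates in Neurobasal A with B27 without vitamin A, EGF and bFGF, in 22 libraries of 4 groups. The knockdown arm set 5 shOgt libraries (replicates 1, 2, 3, 5 and 6) against 6 shLuc libraries. In the former a lentivirus delivered a short hairpin RNA that targets Ogt, in the latter one that targets luciferase, each at 10 viral particles per cell for 3 days. The inhibitor arm set 5 OSMI-1 libraries (replicates 1, 2, 4, 5 and 6), from cells kept for 24 h in 12.5 µM OSMI-1, an inhibitor of O-GlcNAc transferase, against 6 vehicle libraries, given the same volume of the solvent DMSO. Ogt encodes that transferase, which places N-acetylglucosamine on nuclear and cytosolic proteins. The labels give no strain, sex or age, and name 1 hairpin per target. They do not say whether replicates are different mice or cultures, so each p-value measures the spread between these libraries, which may be technical.

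Libraries of the knockdown arm held 7.22 to 13.2 M recovered reads and those of the inhibitor arm 4.52 to 12.8 M, the highest in OSMI-1 4. Ogt itself had a lowest, median and highest normalized count of 737, 826 and 1004 in shLuc, and of 401, 418, 349, 430 and 524 in the 5 shOgt libraries, with a log2 fold change of -0.98 ± 0.11 (SE, adjusted p = 1.1e-06). After OSMI-1 the Ogt transcript was higher by 0.40 ± 0.08 (adjusted p = 0.001). The libraries shLuc 1 and 3, shOgt 3, vehicle 1 and OSMI-1 5 stood apart on the second or the third principal component, and a call that changed when all those of an arm were left out is named beside its gene. All 10 neural stem cell markers were listed. The filter on low counts kept 9 of them for the knockdown test and 8 for the OSMI-1 test. It kept no marker of microglia in either arm. Of the 5 oligodendrocyte markers it kept 0 for the knockdown test and 2 for the OSMI-1 test, where 1 fell. Of the 8 endothelial, mural and fibroblast markers it kept 1 for the knockdown test, which rose, and 0 for the OSMI-1 test. The sum of the 7 neuron markers was 373 to 441 normalized counts in shLuc and 699 to 871 in shOgt, and 173 to 235 in vehicle and 105 to 155 in OSMI-1. The 10 stem cell markers summed to 38090 to 43135 in shLuc and 33864 to 39545 in shOgt, and to 22683 to 27323 in vehicle and 17692 to 19358 in OSMI-1. The 6 astrocyte markers summed to 3306 to 3702 in shLuc and 3381 to 4265 in shOgt, and to 1556 to 1757 in vehicle and 1986 to 2259 in OSMI-1, where 2 rose. The 5 ependymal markers summed to 71.6 to 172 in shLuc and 133 to 192 in shOgt, and to 119 to 186 in vehicle and 51.3 to 97.5 in OSMI-1. Of the stem cell markers 4 fell and 1 rose in each arm. Of the neuron markers 2 rose after knockdown and 3 fell after OSMI-1. Besides the 2 astrocyte markers that rose after OSMI-1, 1 fell after knockdown. Of the ependymal markers 1 rose after knockdown and 1 fell after OSMI-1. In the neuron, astrocyte and ependymal lists 0 were called the other way in the same arm. The part of these marker shifts in the results below was not tested. Since each library is a bulk sample, fewer cells of a type and less RNA per cell cannot be told apart.

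Promoters of 4 genes are shown first, as examples from the 9 genes called only after knockdown and the 4 called only after OSMI-1. Nop56, Pes1 and Nop2 fell after knockdown without a call after OSMI-1, and Nop58 fell after OSMI-1 without a call after knockdown. The difference between the arms, tested below, was called for Nop56 and Pes1. It was not called for Nop2 (adjusted p = 0.38) or Nop58 (adjusted p = 0.59). Each promoter window runs from 250 bases before to 50 bases after the annotated start, 5′ to 3′ on the plus strand, from RefSeq on GRCm38.p6. Capitals mark CACGTG, the E-box letters that Myc and other factors can bind. The windows are chr2:130274162-130274461 for Nop56, chr11:3963725-3964024 for Pes1, chr6:125131633-125131932 for Nop2 and chr1:59684756-59685055 for Nop58.
Nop56: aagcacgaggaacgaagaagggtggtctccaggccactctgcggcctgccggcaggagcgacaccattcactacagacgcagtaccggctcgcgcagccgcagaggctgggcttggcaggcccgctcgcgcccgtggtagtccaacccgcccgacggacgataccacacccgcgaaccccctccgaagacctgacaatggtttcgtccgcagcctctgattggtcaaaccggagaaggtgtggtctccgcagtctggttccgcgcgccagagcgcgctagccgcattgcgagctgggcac
Pes1: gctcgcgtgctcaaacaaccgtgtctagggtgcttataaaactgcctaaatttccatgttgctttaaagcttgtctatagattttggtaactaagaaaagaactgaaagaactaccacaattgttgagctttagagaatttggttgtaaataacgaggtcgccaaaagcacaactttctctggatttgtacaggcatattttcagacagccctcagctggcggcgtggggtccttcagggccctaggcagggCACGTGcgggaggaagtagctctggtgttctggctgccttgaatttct
Nop2: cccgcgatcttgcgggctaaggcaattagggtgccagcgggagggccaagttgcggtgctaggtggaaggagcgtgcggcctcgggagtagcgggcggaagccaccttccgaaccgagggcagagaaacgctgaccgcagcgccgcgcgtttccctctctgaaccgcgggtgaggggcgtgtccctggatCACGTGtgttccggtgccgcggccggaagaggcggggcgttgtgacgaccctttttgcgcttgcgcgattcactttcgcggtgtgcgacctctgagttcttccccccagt
Nop58: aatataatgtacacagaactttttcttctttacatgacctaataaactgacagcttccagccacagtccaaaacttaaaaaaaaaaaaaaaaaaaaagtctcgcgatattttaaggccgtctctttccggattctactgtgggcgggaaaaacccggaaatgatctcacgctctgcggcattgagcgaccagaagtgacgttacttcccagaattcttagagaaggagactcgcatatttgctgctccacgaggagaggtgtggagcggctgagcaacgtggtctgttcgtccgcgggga
In Nop2 the letters begin 60 bases before the start and in Pes1 3 bases after it, while the windows of Nop56 and Nop58 do not hold them. The table of promoters held 27 of the 34 genes, without Fbl, Tcof1, Nol6, Myc, Bop1, Rrs1 and Npm1. CACGTG, which reads the same on both strands, was found in 5 of the 27 (18.5%), in Nol11, Utp20 and Wdr43 besides Nop2 and Pes1, against 11.9% of 9357 genes tested in either arm and 8.09% of all 27025 promoters. It was found in 2 of 10 genes that fell after knockdown and 0 of 5 that fell after OSMI-1. These are descriptions of letters in a window, and no binding was measured.

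In shOgt cells 14 of the 33 genes that passed the filter fell, none rose, and 19 were not called. Values are the authors' normalized counts, a gene was called at an adjusted p below 0.05 by limma on log2(normalized count + 1), and fold changes are on that log2 scale, treated over control. Over all 12136 genes tested, 16.4% were called lower and 15.4% higher. The median log2 fold change was -0.28 for the 33 genes and 0.01 for all genes, and 29 of the 33 estimates lay below 0. At an unadjusted p below 0.05, 20 of the 33 genes lay lower and 0 higher. Over all 12136 genes tested, 5031 passed that threshold in either direction. Of the 33 genes, edgeR and DESeq2 also called 0 higher. In 10 of the 33 every shOgt library lay below every shLuc library, against 9.96% of all genes tested. Mycn stayed below the filter in both arms. Summed reads of the genes, drawn from the same values, were also lower in shOgt. The genes took 361 to 393 of every 100000 reads in shLuc and 315 to 332 in shOgt. The precursor RNA entry Rn45s was left out of the total. Ncl and Nop56, the most abundant of the genes in shLuc, weigh most in this sum.

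**Figure D1:**
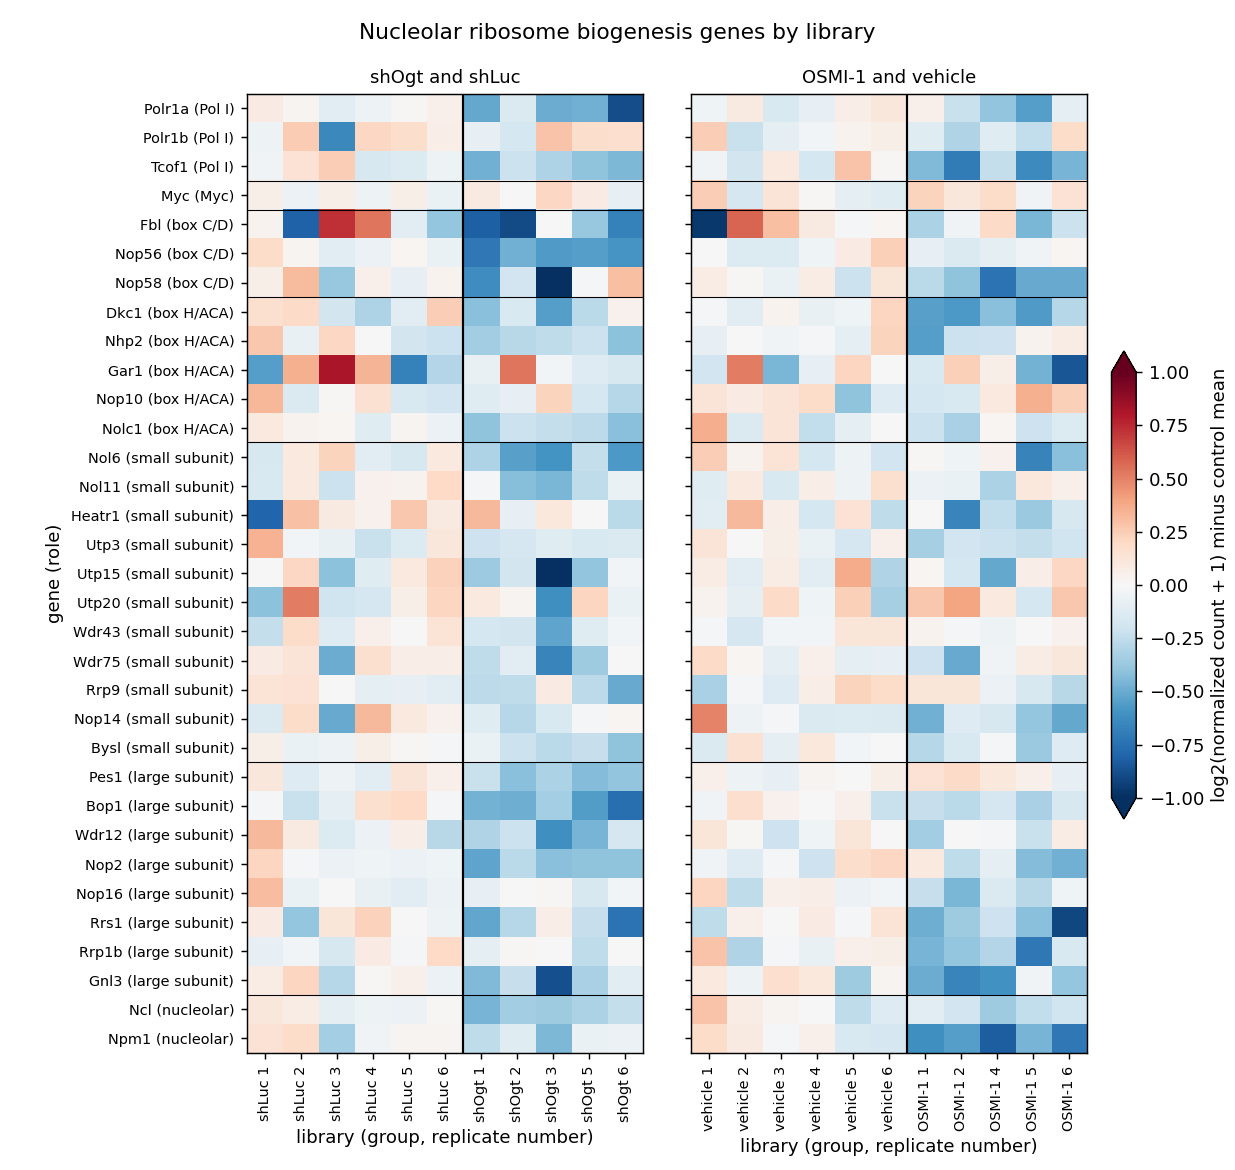
Each cell is 1 gene in 1 library, coloured by its log2(normalized count + 1) minus the mean of the controls of its own arm; colours are capped at -1 and 1, rows are grouped by role, and Mycn, below the filter, is not drawn. Blue cells dominate the shOgt columns, where 25 to 30 of the 33 genes lay below the shLuc mean, and the OSMI-1 columns, where 22 to 27 lay below the vehicle mean.

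Among the genes of RNA polymerase I transcription, Polr1a and Tcof1 fell after knockdown. Polr1a, the largest subunit of the polymerase, had 595, 653 and 683 normalized counts as the lowest, median and highest shLuc value, and 453, 585, 456, 463 and 347 in the shOgt libraries. The groups did not overlap, with shOgt 6 lowest, and the log2 fold change was -0.50 ± 0.11 (SE, adjusted p = 0.0016). Tcof1, which encodes treacle, a cofactor of the polymerase in the nucleolus, went from 638, 691 and 843 to 511, 613, 576, 539 and 521. Again every shOgt library lay below every shLuc library (-0.37 ± 0.10, adjusted p = 0.0055). Polr1b, the other large subunit of the polymerase, had 279, 474 and 520 in shLuc and 412, 386, 532, 493 and 490 in shOgt. Its groups overlapped over most of their range (0.08 ± 0.14, adjusted p = 0.73), so the 2 large subunits of the enzyme did not receive the same call.

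Myc had 2577, 2705 and 2808 normalized counts in shLuc as lowest, median and highest and 2866, 2686, 3114, 2857 and 2542 in shOgt. Its estimate of 0.06 ± 0.07 was not called (adjusted p = 0.54), and both the highest and the lowest of the 11 libraries were shOgt libraries. Mycn was at 0 to 2.85 normalized counts in shLuc and at 2.67, 3.95, 2.82, 0 and 4.16 in shOgt, too low for a test.

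Of the 3 box C/D proteins Nop56 fell after knockdown, and the estimates of all 3 lay below 0. Nop56, a scaffold protein of the particle, had the smallest adjusted p of all 33 genes. Its shLuc libraries had 3435, 3655 and 4209 normalized counts as lowest, median and highest, and the shOgt libraries 2254, 2658, 2504, 2522 and 2458. The 5 values sit close together and far below the lowest control, at 66.9% of the shLuc mean (-0.58 ± 0.07, adjusted p = 2.3e-06). Nop58, its partner in the scaffold, spread from 313 to 770 over the shOgt libraries, wider than the 479 to 778 of shLuc, and was not called (-0.30 ± 0.18, adjusted p = 0.20). Without shOgt 6, its highest library, it was called at adjusted p = 0.041. Fibrillarin (Fbl), the methyltransferase of the particle, had 194, 333 and 566 in shLuc and 193, 182, 340, 261 and 212 in shOgt. The groups overlapped, and the estimate of -0.55 ± 0.23 missed the threshold (adjusted p = 0.069). Fbl was called without shLuc 2 (0.011), without shOgt 3 (0.025), by edgeR (0.041) and by DESeq2 (0.029).

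Of the 5 genes of the box H/ACA particle, Nhp2 and Nolc1 fell after knockdown. Nolc1, a chaperone that shuttles with these particles, had 1620, 1785 and 1881 normalized counts in shLuc and 1333, 1518, 1491, 1468 and 1315 in shOgt. The groups were separate (-0.31 ± 0.07, adjusted p = 0.0023). Nhp2, a core protein of the particle, had 1803, 2036 and 2522 in shLuc and 1645, 1730, 1752, 1804 and 1573 in shOgt. Only shOgt 5 reached the lowest shLuc value (-0.30 ± 0.09, adjusted p = 0.013). Dkc1, the pseudouridine synthase, had an estimate of -0.27 ± 0.11 with an adjusted p of 0.078, and was called without shLuc 4 (0.032) or without shOgt 6 (0.025). Gar1 and Nop10, the other core proteins, had estimates of 0.03 ± 0.37 and -0.09 ± 0.11. Gar1 lay at 11.4 to 33.9 normalized counts in shLuc, low enough that its standard error was the largest of the 33.

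Among the 11 small subunit genes, Nol6 and Bysl fell after knockdown. Nol6, a component of the small subunit processome, had 569, 636 and 743 normalized counts in shLuc and 512, 437, 419, 540 and 428 in shOgt. No shOgt library reached the shLuc range (-0.45 ± 0.10, adjusted p = 0.0024). Bysl, which acts late in small subunit maturation, had an estimate of -0.24 ± 0.07 (adjusted p = 0.017) and did not overlap between groups. Its call ended without shOgt 6 and under scaling to total reads, both at an adjusted p of 0.051. The other 9 ran from -0.39 ± 0.16 for Utp15 to 0.02 ± 0.17 for Heatr1, both of the subcomplex that binds the start of the precursor. Utp15 (adjusted p = 0.068) was called without shLuc 3 (0.028) and without shOgt 6 (0.032). Rrp9, a protein of the U3 small nucleolar RNA particle (-0.24 ± 0.10, adjusted p = 0.061), was called without shOgt 3 (0.0075). Wdr75 (-0.28 ± 0.13, adjusted p = 0.12) was called without shLuc 3 (0.020), its lowest control library. Nol11, Utp3, Nop14 and Utp20 lay at -0.25, -0.16, -0.11 and -0.07, none called. Wdr43 lay at -0.21 (adjusted p = 0.12). Without shLuc 1, shLuc 3 and shOgt 3 together, adjusted p was 0.049 for Utp15, 0.018 for Rrp9, 0.047 for Wdr75 and 0.042 for Wdr43, so that these 4 were then called.

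The large subunit genes held the most calls after knockdown, 6 of 8. Pes1, Bop1 and Wdr12, which form the PeBoW complex needed to process the precursor of the large subunit, all fell. Pes1 had 1692, 1852 and 2019 normalized counts in shLuc and 1588, 1387, 1489, 1368 and 1408 in shOgt, separate groups with a tight shOgt range (-0.36 ± 0.07, adjusted p = 0.001). Bop1 had 1347, 1551 and 1812 in shLuc and 1132, 1125, 1244, 1068 and 935 in shOgt. It stood at 69.7% of the shLuc mean without overlap (-0.52 ± 0.09, adjusted p = 0.00019). Wdr12 overlapped, with 540 as the lowest shLuc value and 429 to 583 in shOgt (-0.35 ± 0.11, adjusted p = 0.022), and lost its call without shOgt 3 (0.057), without shOgt 5 (0.055), or without shLuc 1, shLuc 3 and shOgt 3 together (0.089). Nop2, a methyltransferase of the large subunit RNA, had 1787, 1808 and 2162 in shLuc and 1290, 1549, 1390, 1406 and 1410 in shOgt. The groups did not overlap (-0.40 ± 0.07, adjusted p = 0.00031).

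Gnl3, the GTPase nucleostemin, ran from 441 to 625 normalized counts in shLuc and from 292 to 497 in shOgt (-0.40 ± 0.13, adjusted p = 0.022). Its lowest value was that of shOgt 3, without which the adjusted p was 0.060, and under total read scaling it was 0.057. Rrs1, an assembly factor of the large subunit, ran from 964 to 1479 in shLuc and from 756 to 1316 in shOgt (-0.34 ± 0.12, adjusted p = 0.042). The groups overlapped widely, and the Rrs1 call ended when any of 8 libraries (shLuc 1, 3, 4, 5 or 6, shOgt 1, 2 or 6) was left out, at adjusted p from 0.057 to 0.13. It ended as well without the filter (0.079) and under total read scaling (0.073). Nop16 (-0.05 ± 0.09) and Rrp1b (-0.07 ± 0.09) were not called.

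Ncl and Npm1 encode abundant RNA-binding proteins of the nucleolus that act in transcription, processing and export of ribosomal particles. Ncl had 4009, 4227 and 4629 normalized counts as lowest, median and highest in shLuc and 3102, 3370, 3353, 3431 and 3622 in shOgt. It fell without overlap of the groups (-0.34 ± 0.06, adjusted p = 0.00028). Npm1 had 1760, 2272 and 2538 in shLuc and 1868, 2056, 1639, 2131 and 2145 in shOgt. Its groups overlapped and it was not called (-0.19 ± 0.09, adjusted p = 0.13). Without shLuc 3, the lowest control, it was called (0.023). Npm1 is known for processed copies elsewhere in the genome, whose reads could be counted with it. GENCODE M21 names 0 pseudogenes after it, and copies under other names were not searched.

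**Figure D2:**
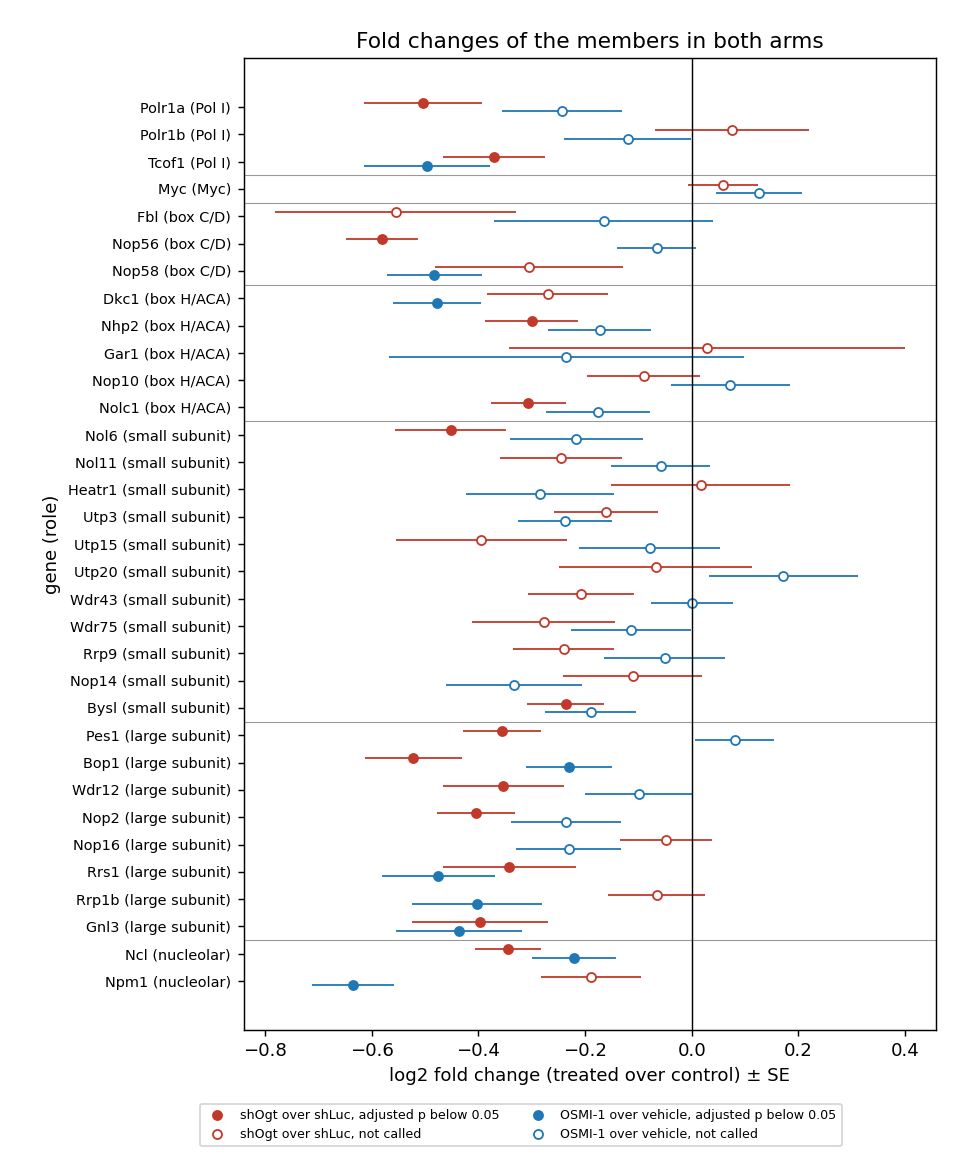
Points are log2 fold changes of each gene, treated over control, with bars of 1 SE, in red for shOgt over shLuc and in blue for OSMI-1 over vehicle; filled points passed an adjusted p of 0.05. Most points lie left of 0 in both arms, 29 red and 28 blue of 33, while filled red and filled blue points often mark different genes, as for Nop56 and Npm1.

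After OSMI-1, 9 of 33 genes fell, none rose and 24 were not called. Over all 11349 genes tested in that arm, 13.2% were called lower and 11.6% higher. The median log2 fold change was -0.22 for the 33 genes and 0.00 for all genes, with 28 of 33 estimates below 0. At an unadjusted p below 0.05, 15 of the 33 genes lay lower and 0 higher. Over all 11349 genes tested, 4038 passed that threshold in either direction. Of the 33 genes, edgeR and DESeq2 also called 0 higher. In 5 genes every OSMI-1 library lay below every vehicle library, against 7.71% of all genes tested. The genes took 363 to 406 of every 100000 reads without Rn45s in vehicle and 316 to 330 in OSMI-1. Ncl and Npm1, the most abundant of the genes in vehicle, weigh most in this sum. Without vehicle 1 and OSMI-1 5, the libraries that stood apart, 6 genes fell in place of 9. Over all genes tested, 1376 of 11388 then fell in place of 1498 of 11349.

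Npm1 had the smallest adjusted p of the genes in this arm. Its vehicle libraries had 2126, 2428 and 2708 normalized counts as lowest, median and highest, and the OSMI-1 libraries 1560, 1626, 1350, 1728 and 1451. The groups lay well apart, with OSMI-1 at 64.4% of the vehicle mean (-0.64 ± 0.08, adjusted p = 1.6e-06). Ncl had 2281, 2738 and 3307 in vehicle and 2516, 2385, 2127, 2286 and 2361 in OSMI-1. These groups overlapped, only OSMI-1 4 lying below the lowest vehicle library, and the call was marginal (-0.22 ± 0.08, adjusted p = 0.043). It ended when any of 8 libraries was left out (vehicle 1 to 4, OSMI-1 2, 4, 5 or 6), at 0.062 to 0.11, without the filter (0.080), and without vehicle 1 and OSMI-1 5 together (0.16).

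In the small nucleolar RNA particles 1 gene of each kind fell after OSMI-1, Nop58 and Dkc1. Nop58 had 585, 699 and 739 normalized counts in vehicle and 562, 515, 408, 478 and 480 in OSMI-1. No OSMI-1 library reached the vehicle range (-0.48 ± 0.09, adjusted p = 0.00029). Nop56 had 1056, 1148 and 1369 in vehicle and 1100, 1051, 1095, 1132 and 1181 in OSMI-1, overlapping groups (-0.07 ± 0.07, adjusted p = 0.57). Fbl had 54.1, 111 and 160 in vehicle and 85.7, 104, 122, 77.6 and 91.6 in OSMI-1 (-0.16 ± 0.21, adjusted p = 0.61). Dkc1 was the called gene of the box H/ACA particle, with 670, 709 and 843 in vehicle and 498, 486, 542, 488 and 595 in OSMI-1. All 5 values lay below the lowest vehicle value, at 71.8% of the mean (-0.48 ± 0.08, adjusted p = 0.00014). Nhp2, Nolc1, Gar1 and Nop10 had estimates of -0.17 ± 0.10, -0.18 ± 0.10, -0.24 ± 0.33 and 0.07 ± 0.11, none called.

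**Figure D3:**
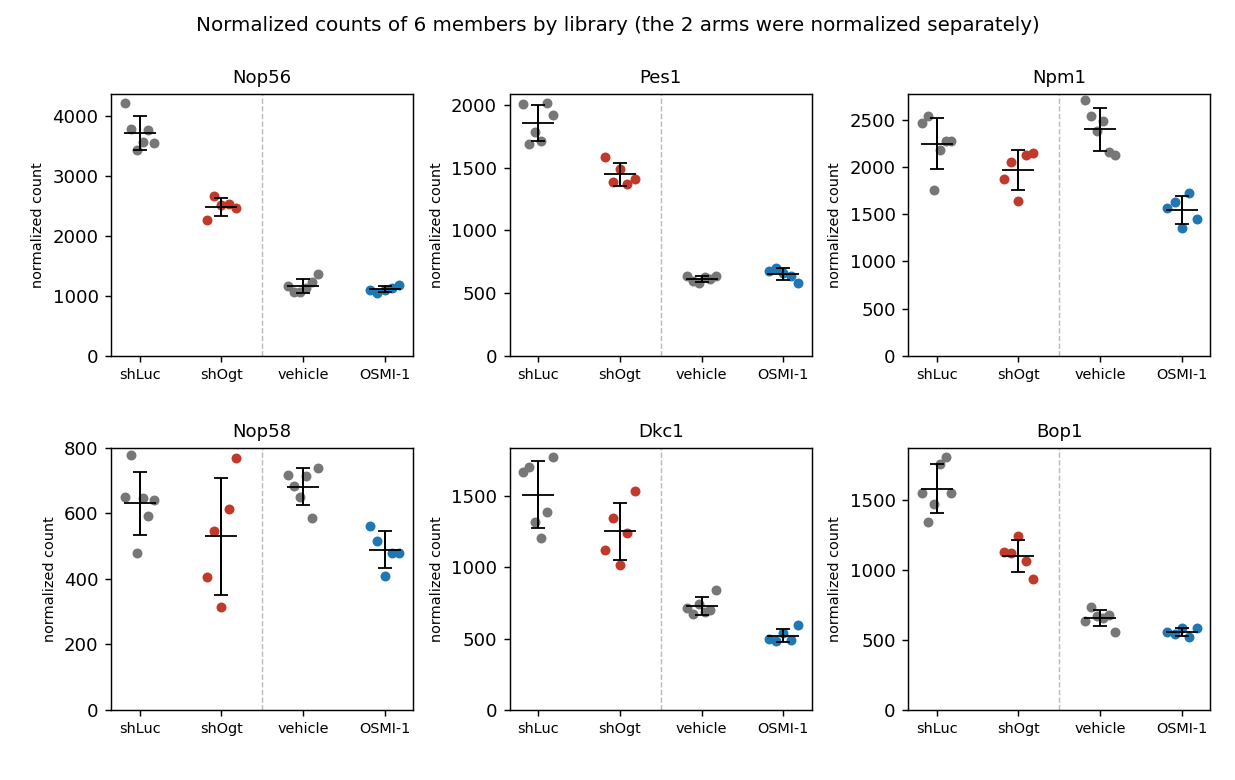
Each point is 1 library, with its normalized count on a linear axis from 0; long bars are means, error bars SD, and the dashed line parts the arms, which were normalized separately and are not compared in level. Nop56 and Pes1 show separate groups in the knockdown arm and overlapping groups in the inhibitor arm, Npm1, Nop58 and Dkc1 the reverse, and Bop1 lies lower in shOgt without overlap and in OSMI-1 with overlap.

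Of the large subunit genes 4 of 8 fell after OSMI-1. Rrs1 had 497, 602 and 651 normalized counts in vehicle and 421, 463, 514, 443 and 314 in OSMI-1. A single OSMI-1 library reached into the vehicle range (-0.48 ± 0.11, adjusted p = 0.0019). Gnl3 had 267, 358 and 384 in vehicle and 242, 216, 224, 334 and 261 in OSMI-1. Here OSMI-1 5 lay among the controls and the other 4 below them (-0.44 ± 0.12, adjusted p = 0.0086). Rrp1b, a nucleolar protein tied to large subunit maturation, had 186, 232 and 280 in vehicle and 166, 175, 187, 140 and 206 in OSMI-1. It overlapped (-0.40 ± 0.12, adjusted p = 0.018) and was not called without OSMI-1 5, its lowest library (0.061), or without vehicle 1 and OSMI-1 5 together (0.12). Bop1 had 558, 663 and 733 in vehicle and 555, 542, 582, 521 and 583 in OSMI-1. The groups overlapped and the fall was small (-0.23 ± 0.08, adjusted p = 0.038). The Bop1 call ended when any of 7 libraries was left out (vehicle 2 to 5, OSMI-1 1, 2 or 5), at 0.058 to 0.089, and without vehicle 1 and OSMI-1 5 together (0.092). Its PeBoW partners Pes1 (0.08 ± 0.07, adjusted p = 0.47) and Wdr12 (-0.10 ± 0.10, adjusted p = 0.52) were not called, nor were Nop2 (-0.24 ± 0.10, adjusted p = 0.10) and Nop16 (-0.23 ± 0.10, adjusted p = 0.093). Nop2 was called without OSMI-1 1 (0.023), its highest OSMI-1 library, and Nop16 without vehicle 2 (0.042).

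Tcof1 was called in the polymerase I group after OSMI-1, with 208, 234 and 288 normalized counts in vehicle and 173, 145, 199, 152 and 171 in OSMI-1. The ranges were separate (-0.50 ± 0.12, adjusted p = 0.0031). Polr1a had 239, 268 and 288 in vehicle and 275, 227, 202, 181 and 249 in OSMI-1, an estimate of -0.24 ± 0.11 that was not called (adjusted p = 0.12) except without OSMI-1 1 (0.047). Polr1b had 161, 189 and 224 in vehicle and 173, 153, 173, 159 and 214 in OSMI-1 (-0.12 ± 0.12, adjusted p = 0.51). Both subunits overlapped between groups. Myc had 953, 1041 and 1268 in vehicle and 1250, 1156, 1216, 1044 and 1184 in OSMI-1 (0.13 ± 0.08, adjusted p = 0.27), within the range of its controls. Mycn was at 0 to 1.18 in vehicle and at 1.82, 0, 0, 0 and 0 in OSMI-1.

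None of the 11 small subunit genes was called after OSMI-1. The closest was Utp3, a processome component, with -0.24 ± 0.09 (adjusted p = 0.051). Every OSMI-1 library of Utp3, at 280 to 308 normalized counts, lay below the lowest vehicle library at 314, and it was called by edgeR (0.046), by DESeq2 (0.033), under TMM scaling (0.047), under total read scaling (0.036), without the filter (0.048) and without vehicle 5 (0.038). Nop14 had -0.33 ± 0.13 (adjusted p = 0.061) and was called without OSMI-1 2 (0.047) and under total read scaling (0.049). The other 9 ran from -0.28 ± 0.14 for Heatr1 to 0.17 ± 0.14 for Utp20, with Wdr43 at 0.00 ± 0.08, Rrp9 at -0.05, Nol11 at -0.06, Utp15 at -0.08, Wdr75 at -0.11, Bysl at -0.19 and Nol6 at -0.22.

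Set side by side, 5 genes fell in both arms: Bop1, Gnl3, Ncl, Rrs1 and Tcof1. They are 35.7% of the genes that fell after knockdown and 55.6% of those that fell after OSMI-1. Over all genes tested in both arms, 636 fell in both, which is 32.5% and 42.6% of the lists. The knockdown share thus lies near that of all genes, and the OSMI-1 share rests on 5 of only 9 genes. Of the 5, Tcof1 alone kept its call in both arms under every alternative that was run. A further 9 genes were called in the knockdown arm and not after OSMI-1, 4 were called after OSMI-1 and not in the knockdown arm (Dkc1, Nop58, Npm1 and Rrp1b), and 15 of 33 were called in neither. Over the 33 genes the log2 fold changes of the arms had a Pearson r of 0.14. The genes share the libraries of each arm and the value is a description. Estimates lay below 0 in both arms for 25.

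Whether a gene responded differently in the arms was tested as the shOgt effect minus the OSMI-1 effect in 1 fit of all 22 libraries. Besides hairpin against inhibitor, the arms differ in duration, 3 days against 24 h, in delivery and in controls. They share no libraries and differ in mean read depth and in the share of Rn45s. These differences cannot be told apart. The difference was called for 3 of 33 genes. Over all 11269 genes tested, 11.4% had a lower and 11.5% a higher effect of shOgt, 1281 against 1301 genes, a split that became 982 against 1637 under scaling to total reads without Rn45s. Nop56 differed by -0.51 (95% confidence interval -0.71 to -0.32, adjusted p = 0.00022) and Pes1 by -0.44 (-0.63 to -0.24, adjusted p = 0.0015), both lower with shOgt. Npm1 differed by 0.45 (0.20 to 0.69, adjusted p = 0.0091), lower with OSMI-1. These 3 were called in every alternative that was run.

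For the other 30 genes the difference was not called, and its intervals give the sizes these libraries leave possible. Dkc1 differed by 0.21 (-0.08 to 0.49) and Nop58 by 0.18 (-0.23 to 0.58), so neither is shown to respond to OSMI-1 alone. Bop1 differed by -0.29 (-0.53 to -0.06, adjusted p = 0.075) and Rrp1b by 0.34 (0.04 to 0.63, adjusted p = 0.11), below an unadjusted p of 0.05 but not after adjustment. The Bop1 difference was called without shLuc 2 (0.038), without shOgt 3 (0.038) and without the 5 libraries that stood apart (0.036). The Rrp1b difference was called without vehicle 2 (0.049) and under total read scaling (0.049). Polr1a differed by -0.26 (-0.57 to 0.05), Nol6 by -0.24 (-0.57 to 0.10), and Nop2 by -0.17 (-0.43 to 0.09).

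The entry Rn45s, named for the precursor ribosomal RNA, was not called in either arm. Reads of the precursor and of the mature ribosomal RNAs cut from it were not told apart. The labels' extract protocol describes poly(A) enrichment, so this entry holds what passed that step and is no measure of polymerase I output. It took 1.13 ± 0.134% of reads in shLuc (SD, n = 6) and 1.11 ± 0.141% in shOgt (n = 5), with a two-sided exact permutation p of 0.788. In the inhibitor arm it took 9.55 ± 3.20% in vehicle (n = 6) and 7.99 ± 1.54% in OSMI-1 (n = 5), with an exact permutation p of 0.359. On the log2 scale the changes were -0.08 ± 0.09 (adjusted p = 0.52) and -0.21 ± 0.20 (adjusted p = 0.47), and without vehicle 6, which had the lowest share, the latter became -0.41 (adjusted p = 0.045). The vehicle libraries spread from 4.81 to 14.2%, so the inhibitor arm differs from the knockdown arm in the level and in the spread of this entry.

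**Figure D4:**
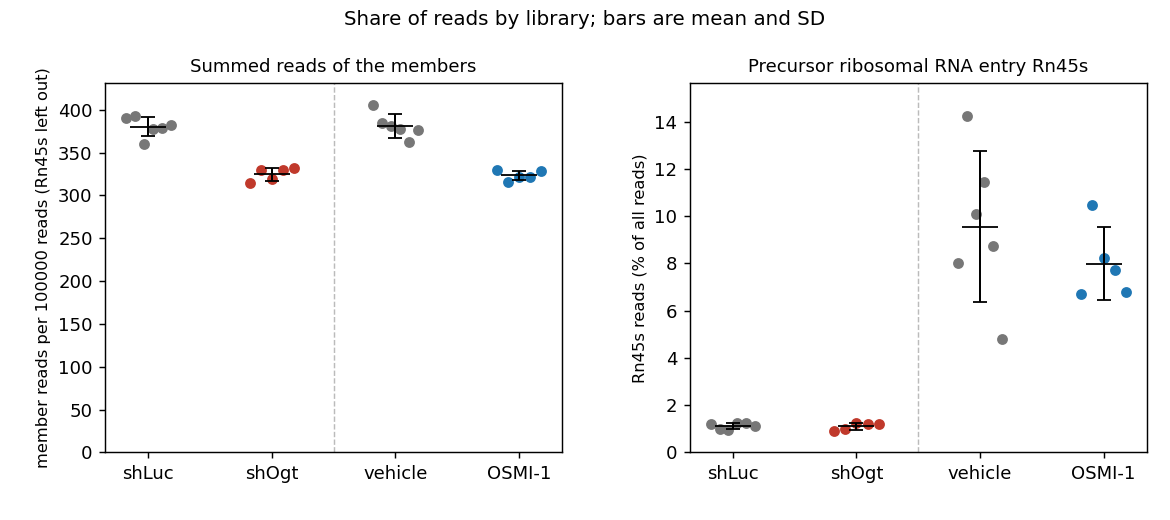
Left, reads of the genes summed per 100000 reads with Rn45s left out; right, Rn45s as a percent of all reads; points are libraries, bars mean and SD, and both axes start at 0. The summed share lies at 315 to 332 in shOgt and 316 to 330 in OSMI-1, below every control library of its arm. Abundant genes weigh most in this sum, which is drawn from the same values as the calls. Rn45s overlaps between the groups of each arm.

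A wider list of 119 ribosome biogenesis genes, none of them among the 34, was read in the same fits, and all passed the filter in both arms. After knockdown 34 fell and 1 rose, with a median log2 fold change of -0.17. By role, 3 of 13 polymerase I genes, 13 of 40 small subunit genes, 12 of 53 large subunit genes and 6 of 13 genes of the nuclear exosome, the complex that trims precursor RNAs, fell. Wdr46, a small subunit processome protein, went from 684 ± 93.9 normalized counts (SD, n = 6) to 354 ± 41.3 (n = 5), a log2 fold change of -0.95 ± 0.11 (SE, adjusted p = 3.1e-06). Utp14a, of the same assembly, fell by 0.82 ± 0.14 (adjusted p = 0.00012) and Cirh1a, the processome protein cirhin, by 0.44 ± 0.08 (adjusted p = 0.00043). Nop9, a small subunit factor, fell by 1.13 ± 0.23 (adjusted p = 0.00087). The gene that rose was Exosc3, a cap subunit of the exosome (0.26 ± 0.09, adjusted p = 0.037), whose call ended in 6 of 11 fits that left out 1 library (shLuc 4, 5 or 6, shOgt 2, 5 or 6), at 0.064 to 0.11.

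After OSMI-1 15 of the 119 fell and 1 rose, with a median of -0.10. By role these were 2 polymerase I, 4 small subunit, 7 large subunit and 2 exosome genes. Exosc8, a ring subunit of the exosome, fell by 0.55 ± 0.13 (adjusted p = 0.0031) and Nol10 by 0.57 ± 0.15 (adjusted p = 0.0062). Nol10 is a small subunit factor, but the list counts it with the large subunit genes. Nol12 fell by 0.33 ± 0.09 (adjusted p = 0.0075) and Dis3, a catalytic subunit of the exosome, by 0.56 ± 0.15 (adjusted p = 0.0082). Rrp36, another small subunit factor, rose from 232 ± 13.1 (SD, n = 6) to 325 ± 47.3 (n = 5) normalized counts, by 0.47 ± 0.11 (adjusted p = 0.0017). Of the 119, Exosc8, Ltv1 and Sdad1 fell in both arms, 8.82% of the knockdown list and 20% of the OSMI-1 list, against 32.5% and 42.6% over all genes tested in both arms. The 34 of 119 that fell after knockdown stand beside 16.4% of all genes, and the 15 of 119 after OSMI-1 beside 13.2%.

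Several of these genes carry small nucleolar RNA genes within their bounds, a feature not used to choose them. By position on the same strand in the GENCODE M21 annotation of GRCm38, 6 of 33 genes with a measured change (18.2%) held at least 1, against 201 of 11431 protein-coding genes tested in either arm (1.76%). Nop56 (chr2:130274430-130279313) held 5, among them Snord57 and Snord110, and Nop58 (chr1:59684971-59719044) held 4, among them Snord11 and Snord70. Gnl3 (chr14:31012433-31019152), Ncl (chr1:86344719-86359400) and Wdr43 (chr17:71615895-71659031) held 3 each, and Dkc1 (chrX:75095854-75109777) held 1. Of the 14 genes that fell after knockdown 3 are such hosts, and of the 9 that fell after OSMI-1 4 are. The small nucleolar RNAs themselves were not analysed here.

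The letters AACATGC in 3′ untranslated regions were chosen from an earlier look at these libraries, so they are no independent choice. On the transcript strand, in GENCODE M21, they occur in 3 of the 33 genes (9.09%), Ncl, Nop58 and Wdr12, against 10.2% of 11349 genes with an annotated region that were tested in the knockdown arm. Without these 3 genes 12 of 30 fell after knockdown, with a median of -0.26. In the wider list 7 of 114 held the letters, Nop9 among them.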

How the data were processed

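RNA was measured in 22 libraries, grouped by the sample labels. The authors deposited 1 table per arm. Per the file headers each holds normalized counts per library and a base mean (a signal that is never negative), per gene a log2 fold change with standard error, the Wald statistic (a score) and raw and adjusted p-value. STAR, RSEM and DESeq2 were used, per the submitters' processing notes, which name no versions and list the build hg38 beside mouse gene symbols. Library preparation is given as strand-specific SureSelect in the labels' extract protocol and as Smart-Seq2 in the series' text. The authors' fold changes served only to check directions.

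Each library's values were whole multiples of 1 step within 0.001, so reads were recovered. Genes were kept by edgeR 4.0.16 filterByExpr on those reads (minimum count 10, minimum total 15). Tests were limma 3.58.1 (R 4.3.3) with its trend option, on log2(normalized count + 1) of 1 arm at a time, over all genes kept, two-sided, with Benjamini-Hochberg adjustment at 0.05. This scale understates changes of low genes. The difference between arms was a contrast in 1 limma fit of all 4 groups. A factor common to 1 table cancels in it. The scripts were tested on simulated data.

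Alternatives were pseudocounts of 0.5 and 5, no filter, TMM or total read scaling, edgeR's quasi-likelihood test, DESeq2 1.42.0, a replicate block, and leaving out libraries. Values of every treated library, with the lowest, median and highest control, are given for Ncl, Npm1, Fbl, Polr1a, Polr1b, Myc and Mycn and, per arm, for up to 8 other called genes with the smallest adjusted p. Of the wider list up to 4 per arm and direction are named. Other genes are given by estimates, and Ltv1 and Sdad1 were named after their values were seen. The genes and lists were chosen with earlier results of these data known.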

Additional observations from a re-analysis of the deposited data

Results flagged for a closer look

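Over 36 genes, 144 groups of libraries were searched for a library far from the rest of its group, and 9 (6.25%) held one, where chance gives about 1 in 20. In shLuc 1, Heatr1 had 173 normalized counts against 308 to 367 in the others, Nop2 2162 against 1787 to 1847, and Nop16 1200 against 901 to 962. Wdr75 had 328 in shLuc 3 against 483 to 516, and Ogt 1004 in shLuc 2 against 737 to 836. Gar1 had 27.6 in shOgt 2 against 16.6 to 18.4. In the inhibitor arm, Nhp2 had 972 in vehicle 6 against 782 to 833, Nop14 had 315 in vehicle 1 against 201 to 221, and Mycn had 1.82 in OSMI-1 1 against 0 in the others. Nop2 stayed called after knockdown without shLuc 1, and Wdr75 was called without shLuc 3 (adjusted p = 0.020).

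For 4 genes the shOgt effect differed from the OSMI-1 effect by the test of the difference, on the log2 scale by -0.51 for Nop56, -0.44 for Pes1, 0.45 for Npm1 and -1.38 for Ogt, the targeted gene. Nop56 and Pes1 were lower with shOgt and Npm1 with OSMI-1.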

How the results depend on the processing

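Across the alternatives, 0 of the genes rose in either arm and no called value changed sign. After knockdown 13 to 16 genes fell when 1 library was left out, 11 under total read scaling and 15 by edgeR and by DESeq2. Without shLuc 1, shLuc 3 and shOgt 3, an alternative chosen after seeing the data, 17 fell. Over all 12136 genes tested, 1988 fell by limma, 1647 under total read scaling and 2002 by edgeR. DESeq2 called 2092 of 19240 lower, and without shLuc 1, shLuc 3 and shOgt 3 2024 of 12079 fell. Polr1a, Tcof1, Nop56, Nhp2, Nolc1, Nol6, Pes1, Bop1, Nop2 and Ncl kept their calls throughout. After OSMI-1 6 to 10 fell when 1 library was left out, 11 under total read scaling, 10 by edgeR and by DESeq2, and 6 without vehicle 1 and OSMI-1 5. Tcof1, Nop58, Dkc1, Rrs1, Gnl3 and Npm1 kept theirs. Over all 11349 genes tested in that arm, 1498 fell by limma, 1599 under total read scaling and 1497 by edgeR. DESeq2 called 1572 of 16572 lower, and without vehicle 1 and OSMI-1 5 1376 of 11388 fell. The median log2 fold change of the 33 genes was -0.2224 after knockdown under total read scaling, where it had been -0.277. The median of all genes tested moved as well, from 0.012 to 0.066. After OSMI-1 the median of the 33 genes was -0.234 to -0.1665 with 1 library left out (-0.1665 without OSMI-1 5). Of the wider list, 2 genes rose after knockdown under total read scaling, 3 without the libraries that stood apart, and 0 to 2 with 1 library left out; after OSMI-1 the latter range was 1 to 2. Rn45s after OSMI-1 ran from -0.4063 (without vehicle 6, where it was called) to -0.0701. The cause of these changes was not tested. Without the genes holding AACATGC, 12 of 30 fell after knockdown and 7 of 30 after OSMI-1. The arms differed for 3 to 4 genes with 1 library left out.

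With the replicate number as a replicate block, 19 genes fell after knockdown and 7 after OSMI-1, and the arms differed for 3. Over all genes tested, 2042 of 12120 then fell after knockdown and 1290 of 11256 after OSMI-1. Of the wider list 0 rose after knockdown (39 fell). After knockdown the block brought Fbl (adjusted p = 0.019), Dkc1 (0.0037), Utp15 (0.013), Rrp9 (0.035) and Npm1 (0.048) past the threshold, and after OSMI-1 it ended the calls of Bop1 (0.11) and Ncl (0.056). Same-numbered libraries had deviations that correlated at -0.01 to 0.16 (shOgt with shLuc) and -0.10 to 0.05 (OSMI-1 with vehicle) and the labels state no pairing, so the numbers were not taken to pair libraries. The value of 0.16 belongs to replicate 3, and shLuc 3 and shOgt 3 had the highest scores of the arm on the third principal component (33.6 and 34.0). Of the treated libraries only shOgt 3 correlated best with the control of its own number.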
